A study of Mus musculus with 2 samples.

Results

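Heme oxygenase 1 (Hmox1), the enzyme that opens the heme ring and releases iron, was followed with 8 other antioxidant genes, Nqo1, Txnrd1, Srxn1, Prdx1, Txn1, Nfe2l2, Keap1 and Sod2, in single cells of the adult mouse hippocampus. The 9 members were the rows of both count matrices that carry these symbols, of 22587 symbols in all, and every member passed the minimum of 20 UMIs (unique molecular identifiers, each counting 1 captured transcript). The members were chosen by the CPM of Hmox1 in earlier results of these data, where it differed between the genotypes and along the mitochondrial transcript share, and by textbook knowledge of NRF2, so the values of Hmox1 in that comparison, and between cells of low and high mitochondrial transcript share, describe the choice and support nothing further. The question asked of them was whether Hmox1 stood alone or was accompanied by the other targets of the same transcription factor.

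The mice compared were of 2 genotypes, with 1 library (10x Genomics single cell 3′ v2) for each genotype and 3 pooled mice in each library. The control transgenic (CT) mice carried Nestin-CreERT2 and ROSA26YFP and lacked Opa1-Flox, and the Opa1 cKO mice carried Nestin-CreERT2, ROSA26YFP and Opa1-Flox. OPA1 is the GTPase that fuses inner mitochondrial membranes. Both received tamoxifen (TAM) at 8 weeks of age and both gave sorted YFP-positive, Propidium Iodide-negative cells at 12 weeks. Nestin drives the Cre, so YFP reports recombination at the reporter in Nestin-expressing cells and their progeny, not the state of Opa1 in each cell. The strain label is written alike for both samples and the genotype comes from the sample titles and the sorting protocol.

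NRF2, the protein of Nfe2l2, is a transcription factor that is held in the cytoplasm and handed over for degradation by KEAP1. When oxidants or electrophiles modify KEAP1, NRF2 accumulates, pairs with small MAF proteins and binds antioxidant response elements near genes of thioredoxin, glutathione and quinone metabolism. Hmox1 is one of these genes, but it is also bound by the repressor BACH1, which heme releases, and it responds to other stress pathways, among them the integrated stress response (ISR), in which ATF4 drives genes of amino acid supply after mitochondrial or endoplasmic reticulum stress.

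The CT library held 4634 barcodes and 10799936 UMIs, and the Opa1 cKO library 6475 barcodes and 18662032 UMIs. The gene and mitochondrial filters passed 4186 CT and 6121 Opa1 cKO cells, of which 42.8% and 61.5% held a YFP UMI. The YFP filter thus removed unequal shares of the libraries. After all of these filters 1790 CT and 3764 Opa1 cKO cells were kept, fewer than the study states, with a median of 2555 and 3008 UMIs, and 9 barcodes occurred among the kept cells of both libraries. With 1 library for each genotype there is no replicate error and no test: genotype, library and sort cannot be told apart, and all intervals are exact 95% intervals that cover counting error only. Levels are CPM, the UMIs of a gene summed over the cells of a class and scaled to a common total for the class, and fewer transcripts per cell cannot be told apart from a larger total of other transcripts. Because each transcript is counted near its 3′ end, levels are compared within a gene and not between genes.

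The members were described mainly in the neural stem cell (NSC) pool-like class, 1378 CT and 2583 Opa1 cKO cells named from Aldoc, Apoe, Slc1a3, Slc1a2, Clu, Aqp4 and Slc7a10, genes that astrocytes and quiescent NSCs share. Sox2, Id3, Hopx and Sox9, on the same marker list, were not over 2-fold above the other clusters in any cluster of this class. Hopx was instead among the leading genes of the activated NSC-like class. The class name therefore does not tell quiescent NSCs from astrocytes. Aldoc stood at 9013 CPM in CT against 9771 CPM in Opa1 cKO, and Apoe at 43030 against 38000 CPM. Gfap, another marker on the list for this class, differed more, at 456 CPM in CT against 1101 CPM in Opa1 cKO. The class joined 2 clusters, and different clusters held most of it in each library. Cluster 0 held 1374 of the CT cells and 792 of the Opa1 cKO cells. Cluster 1, with 1791 cells from Opa1 cKO and 4 from CT, was led by the stress genes Gdf15, Slc7a11, Nupr1, Hmox1 and Chac1, so Hmox1 itself helped to set it apart. Opa1 (chr16:29579334-29654884) stood at 18.5 CPM in CT against 8.13 CPM in Opa1 cKO (log2 ratio -1.19, interval -1.69 to -0.69), though a 3′ count need not lie in the deleted part of the gene.

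Hmox1 was 14.0-fold higher in the Opa1 cKO library than in the CT library in NSC pool-like cells. The CT cells held 28 Hmox1 UMIs, or 7.41 CPM (4.92 to 10.7), and the Opa1 cKO cells 882 UMIs, or 103.9 CPM (97.2 to 111.0). The log2 ratio was 3.81 (3.27 to 4.41), rank 16 from the top among 11284 genes with at least 20 UMIs. Hmox1 lies at chr8:75093621-75100589 on the plus strand of GRCm38 (mm10), as do all gene coordinates here from GENCODE M21.

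Of the other members only Srxn1, sulfiredoxin, which restores over-oxidised peroxiredoxins, was also at least 2-fold higher. Srxn1 (chr2:152105516-152111376) stood at 13.2 CPM (9.82 to 17.4) in CT against 32.7 CPM (29.0 to 36.8) in Opa1 cKO (log2 ratio 1.31, interval 0.87 to 1.77). Thus 1 of the 8 members without Hmox1 (12.5%) was at least 2-fold higher and 0 at least 2-fold lower. Of all 11284 genes 451, or 4.0%, were at least 2-fold higher and 3.75% at least 2-fold lower. With Hmox1, by whose level the members were chosen, the count was 2 of 9. The median log2 ratio was 0.44 over the 9 members, 0.40 without Hmox1 and 0.03 over all genes.

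The thioredoxin branch was mixed. Txnrd1 (chr10:82833951-82897712), the reductase that keeps thioredoxin reduced, stood at 19.1 CPM in CT against 35.1 CPM in Opa1 cKO (log2 ratio 0.88, interval 0.51 to 1.27). Txn1 (chr4:57943373-57956411), thioredoxin itself, stood at 219 and 238 CPM, a log2 ratio of 0.12 with an interval of 0.0013 to 0.24. Prdx1 (chr4:116685544-116700822), a peroxiredoxin that reduces hydrogen peroxide and the most deeply counted member from 9558 CT and 17748 Opa1 cKO UMIs, was lower, at 2530 CPM in CT against 2091 CPM in Opa1 cKO (log2 ratio -0.28, interval -0.31 to -0.24). The branch therefore holds members on both sides of equality.

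Nqo1 (chr8:107388225-107403206), the quinone reductase that is the textbook readout of NRF2, was nearly level, at 20.6 CPM (16.3 to 25.8) in CT against 22.3 CPM (19.2 to 25.7) in Opa1 cKO. Its log2 ratio was 0.11, with an interval of -0.28 to 0.51 that stays below 2-fold in either direction. The regulators themselves were modestly higher. Keap1 (chr9:21229730-21239361) stood at 30.4 CPM in CT against 49.1 CPM in Opa1 cKO (log2 ratio 0.69, interval 0.39 to 1.00), and Nfe2l2 (chr2:75675513-75704641) at 75.4 and 95.9 CPM, a log2 ratio of 0.35 (0.15 to 0.55). NRF2 is controlled mostly as a protein, so the level of its transcript does not measure its activity. Sod2 (chr17:13006846-13040063), the superoxide dismutase of the mitochondrial matrix, stood at 276 CPM in CT against 375 CPM in Opa1 cKO (log2 ratio 0.44, interval 0.34 to 0.55).

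**Figure D1:**
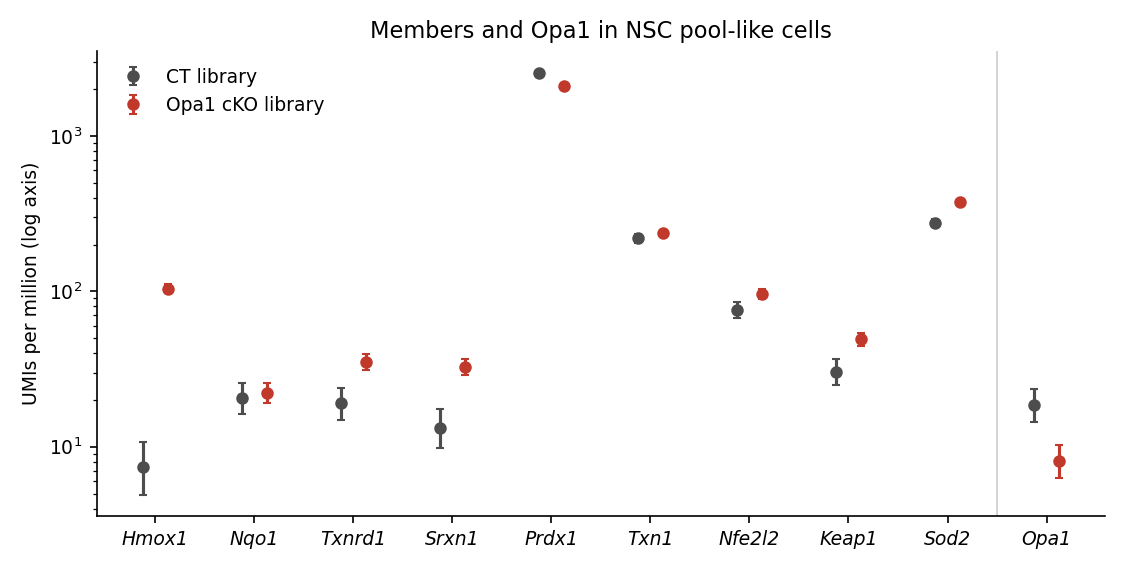
Level in CPM (log axis) of the 9 members and Opa1 in NSC pool-like cells of the CT library (grey) and the Opa1 cKO library (red), with exact 95% counting intervals, 1 library for each genotype. The Hmox1 points lie 14.0-fold apart, those of Srxn1 2.47-fold apart, and those of Nqo1 have overlapping intervals.

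Set against each other member without any library size, the Hmox1 difference remained larger in every case. The log2 ratio of the Hmox1 ratio over the member's ratio was lowest against Srxn1, at 2.50 (1.77 to 3.25) or 5.66-fold, and highest against Prdx1, at 4.08 (3.54 to 4.68) or 17.0-fold. Against Nqo1 it was 3.70 (3.01 to 4.42), and against the other 5 members it lay between 2.93 for Txnrd1 and 3.69 for Txn1. Srxn1, the second highest member, differed between the libraries much less than Hmox1, by whose difference the members were chosen.

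The windows of 250 bases before the RefSeq transcription starts (GRCm38.p6) were searched on both strands for the core of the antioxidant response element, TGACNNNGC, for TGANTCA, bound by AP-1 factors, and for TGATGNAA, bound by C/EBP and ATF heterodimers. A window was at hand for 8 of the 9 members, Hmox1 being the exception. TGACNNNGC lay in windows of 3 of these 8 members and in 10.2% of 32851 promoters, TGANTCA in 2 members and 6.75% of promoters, and TGATGNAA in 0 members and 3.45% of promoters. A member was counted if any of its windows matched, and the 8 members had 10 windows, 3 of them for Txnrd1. The share of promoters counts single windows, so the counts of members and promoters are not in the same unit. The 4 windows with a match are shown because they include the second highest member, Srxn1, and the lowest, Prdx1, with the matching letters in capitals. They are Srxn1 (chr2:152105274-152105523, plus strand), Txnrd1 (its second of 3 starts, chr10:82858956-82859205, plus strand), Prdx1 (chr4:116685349-116685598, plus strand) and Nfe2l2 (chr2:75704664-75704913, minus strand), each written 5′ to 3′ along the gene.
Srxn1: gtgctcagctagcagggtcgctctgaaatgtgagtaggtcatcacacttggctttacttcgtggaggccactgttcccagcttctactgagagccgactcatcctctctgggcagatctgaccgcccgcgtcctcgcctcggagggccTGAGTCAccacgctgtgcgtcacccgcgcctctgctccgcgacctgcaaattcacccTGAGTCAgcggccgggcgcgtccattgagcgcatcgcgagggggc
Txnrd1: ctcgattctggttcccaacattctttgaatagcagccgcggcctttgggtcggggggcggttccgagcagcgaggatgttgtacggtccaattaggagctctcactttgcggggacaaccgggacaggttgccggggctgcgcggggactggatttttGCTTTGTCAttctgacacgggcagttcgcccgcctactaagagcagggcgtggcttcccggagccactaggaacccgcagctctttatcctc
Prdx1: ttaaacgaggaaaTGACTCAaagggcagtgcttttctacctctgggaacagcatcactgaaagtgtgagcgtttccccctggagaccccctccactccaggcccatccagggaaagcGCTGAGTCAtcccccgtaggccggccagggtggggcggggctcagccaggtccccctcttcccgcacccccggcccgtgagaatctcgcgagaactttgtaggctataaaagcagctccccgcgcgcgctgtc
Nfe2l2: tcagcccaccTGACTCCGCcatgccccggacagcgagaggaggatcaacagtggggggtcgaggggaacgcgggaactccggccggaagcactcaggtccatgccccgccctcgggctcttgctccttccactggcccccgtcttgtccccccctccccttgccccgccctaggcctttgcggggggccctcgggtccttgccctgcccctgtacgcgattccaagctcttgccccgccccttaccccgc
The Srxn1 window holds TGAGTCA at 102 and at 45 bases before the start. The match at 45 bases is followed by gc, so it differs from TGACNNNGC only in G for C. Only the form with C was searched, so the search does not show that Srxn1 lacks an antioxidant response element. The Prdx1 window holds TGACTCA at 237 bases, and at 133 bases GCTGAGTCA, which matches TGACNNNGC on the opposite strand and overlaps a TGANTCA match. Txnrd1 has its TGACNNNGC match on the opposite strand at 92 bases and Nfe2l2 on the same strand at 240 bases. Prdx1, which was lower in Opa1 cKO, and Srxn1, which was higher, both hold TGANTCA, and Nqo1, Txn1, Keap1 and Sod2 hold none of the 3 letter strings in these windows. A match of letters is a description and not a bound site, and these short windows do not reach distant elements.

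In the wider NRF2 list of 33 further target genes, drawn up without the members, most genes lay within 2-fold. Of its 31 genes with at least 20 UMIs, 4 (12.9%, against 4.0% of all genes) were at least 2-fold higher in Opa1 cKO and 1 at least 2-fold lower, and the median log2 ratio was 0.15 against 0.03 over all genes. The highest were Osgin1 at 2.0 (-0.06 to 5.15), on only 18 UMIs in Opa1 cKO and 2 in CT, Ephx1, an epoxide hydrolase, at 1.92 (1.46 to 2.41), Slc7a11, the cystine carrier, at 1.44 (1.35 to 1.52), and Gstp1, a glutathione transferase, at 1.03. The lowest were Abcc1, an exporter of glutathione conjugates, at -1.17 and Aox1 at -0.58. Gclc and Gclm, the catalytic and modifier subunits of the rate-limiting enzyme of glutathione synthesis, stood at 0.06 (-0.34 to 0.48) and 0.63 (0.49 to 0.78). Slc7a11 is also an ATF4 target and was 1 of the genes of that list. Without Slc7a11 the NRF2 list summed to 14576 CPM in CT against 15881 CPM in Opa1 cKO, a sum weighted toward its most abundant genes.

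Among the regulators and partners of NRF2, Nfe2l1 differed most. This relative of NRF2, which governs proteasome genes, stood at 17.7 CPM in CT against 74.8 CPM in Opa1 cKO (log2 ratio 2.08, interval 1.71 to 2.46). It was the 1 gene of 15 with enough counts that was at least 2-fold higher (6.67%, against 4.0% of all genes). The next were Mafk at 0.90, on 21 UMIs in Opa1 cKO and 5 in CT, and Dcaf11 at 0.70, and the lowest were Bach2 at -0.81 and Cul3, the ubiquitin ligase scaffold that works with KEAP1, at -0.45. Bach1, the repressor of Hmox1, stood at 9.26 CPM in CT against 7.07 CPM in Opa1 cKO, and the log2 ratio was -0.39 with an interval of -1.02 to 0.25. The median of the list was 0.22.

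The genes that work beside heme oxygenase passed 2-fold about as often as all genes did. In the list of heme and iron handling, 1 of 20 genes was at least 2-fold higher (5%, against 4.0% of all genes). Likewise 1 was at least 2-fold lower, as were 3.75% of all genes. The higher was Hpx, which carries heme, at a log2 ratio of 1.20 on 62 UMIs in Opa1 cKO and 12 in CT. The lower was Tfrc, the transferrin receptor, at -1.06 (-1.31 to -0.82). Fth1, the heavy chain of ferritin, which stores the iron that heme oxygenase frees, stood at 2090 CPM in CT against 4018 CPM in Opa1 cKO (log2 ratio 0.94, interval 0.91 to 0.98), and Hebp1 followed at 0.58. Hmox2, the constitutive heme oxygenase, stood at 46.8 and 62.7 CPM, a log2 ratio of 0.42. The biliverdin reductase genes were not higher, with Blvra at -0.09 (-0.39 to 0.22) and Blvrb, the second lowest of the list, at -0.47 (-0.68 to -0.26).

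Other peroxide and superoxide enzymes, 20 genes, had 0 members at least 2-fold higher or lower and a median log2 ratio of 0.04. Of all genes 4.0% were higher and 3.75% lower by that much. Prdx3, the mitochondrial peroxiredoxin, was highest at 0.79, followed by Gpx4 at 0.66 and Glrx at 0.65, and Sod3, the extracellular superoxide dismutase, was lowest at -0.73, followed by Txnrd3 at -0.55. Heat shock genes, with which Hmox1 shares inducers, had 1 of 11 (9.09%) at least 2-fold higher. This was Hspb1 at 1.15 on 20 UMIs in Opa1 cKO and 4 in CT. Hspd1 at 0.83 and Hspa8 at 0.72 came next, Hspa1a at -0.62 and Bag3 at -0.44 were lowest, and the median was 0.31. Targets of the hypoxia factor HIF, which Hmox1 also is, had 1 of 10 (10%) higher. This was Ndrg1 at 1.10 on 24 UMIs in Opa1 cKO and 5 in CT, ahead of Egln1 at 0.23 and Slc2a1 at 0.16. The 1 lower was Vegfa at -1.08, with Ankrd37 at -0.70 next, and the median was 0.13.

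The ISR and ATF4 list stood apart from all of these, with 15 of 16 genes (93.75%) at least 2-fold higher and 0 at least 2-fold lower. Its median log2 ratio was 2.44, and 4.0% of all genes were at least 2-fold higher. The list includes Atf4, Chac1, Slc7a11, Slc3a2, Ddit3 and Ddit4, which the study had reported as activated in these same data. Its count is thus partly set by how the list was drawn. Asns, asparagine synthetase, had 1 UMI in CT against 622 in Opa1 cKO (log2 ratio 8.11, interval 5.63 to 13.42), and Chac1, which degrades glutathione, had 2 against 504 (log2 ratio 6.81, interval 4.95 to 9.86). Trib3, a feedback inhibitor of ATF4, had 0 and 718 UMIs, a log2 ratio of at least 6.73 against a floor of 3 counts. Psat1 at 1.42 and Ddit4 at 0.13 were lowest. The Hmox1 value of 3.81 fell within the range of the ISR list. It lay above every gene with enough counts in the NRF2, regulator, heme, peroxide, heat shock and HIF lists. The members were chosen by this difference in Hmox1, so its place among the lists describes the choice and supports nothing further.

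**Figure D2:**
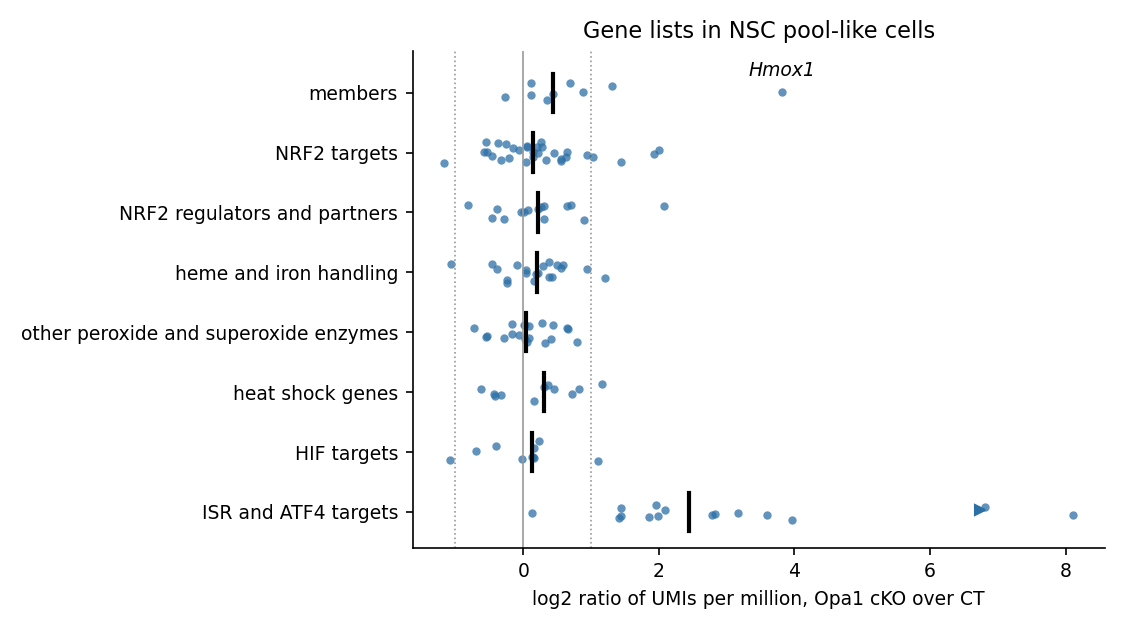
Log2 ratio of CPM, Opa1 cKO over CT, in NSC pool-like cells for each gene with at least 20 UMIs in 8 lists (points, spread vertically for legibility), with the list median as a black bar, a triangle for the lower bound of Trib3 and dotted lines at 2-fold. Medians lie between 0.04 and 0.44 in every list but that of ISR and ATF4 targets, at 2.44.

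Hmox1 was then followed across the share of UMIs that came from the 13 mitochondrially encoded mRNAs (the mt- share), by which the Opa1 cKO library divides. Its NSC pool-like cells had a median mt- share of 0.672% against 5.24% in CT, and 60.9% of them lay under 1%, where CT had only 3 cells. In Opa1 cKO cells Hmox1 stood at 147.6 CPM (137.4 to 158.4) in the 1574 cells under 1%, at 87.3 CPM (67.1 to 111.7) in the 241 cells from 1% to under 3%, and at 17.8 CPM (13 to 23.8) in the 768 cells of 3% or more. The log2 ratio of the first over the last was 3.05 (2.62 to 3.52). Median depth was alike in the first and last group, 2961 and 3041.5 UMIs.

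In finer bins of mt- share the Opa1 cKO level of Hmox1 went down step by step. It was 187 CPM under 0.25%, 144 CPM from 0.25% to 0.5% and 132 CPM from 0.5% to 1%, then 88.5 CPM from 1% to 2% and 85.0 CPM from 2% to 3%. Above that it was 28.8 CPM from 3% to 4%, 16.8 CPM from 4% to 6% and 14.3 CPM from 6% to 20%. Neighbouring bins had overlapping intervals except on either side of 0.25% and of 3%. The 4 CT bins with at least 20 cells ran from 5.80 to 13.2 CPM with overlapping intervals.

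The other members had a shallower slope or none. Keap1 and Srxn1 came next, at log2 ratios of cells under 1% over cells of 3% or more of 0.91 (0.54 to 1.30) and 0.89 (0.44 to 1.36), with Srxn1 at 38.2 and 20.6 CPM. Txnrd1 had 0.62 (0.21 to 1.04), Nqo1 0.23 (-0.25 to 0.73), Sod2 0.20, Nfe2l2 0.09 and Txn1 0.05, and Prdx1 was lower in the cells under 1%, at -0.63 (-0.68 to -0.59). In this comparison Hmox1, by whose level the members were chosen, was thus the 1 member of 9 at least 2-fold higher. Of the 8 others 0 were at least 2-fold higher or lower, where 6.31% of 10654 genes were higher and 2.09% lower by that much. The median over all genes was 0.24, against 0.21 over the members without Hmox1. The Hmox1 ratio exceeded that of each other member by a log2 difference between 2.14 for Keap1 and 3.68 for Prdx1.

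**Figure D3:**
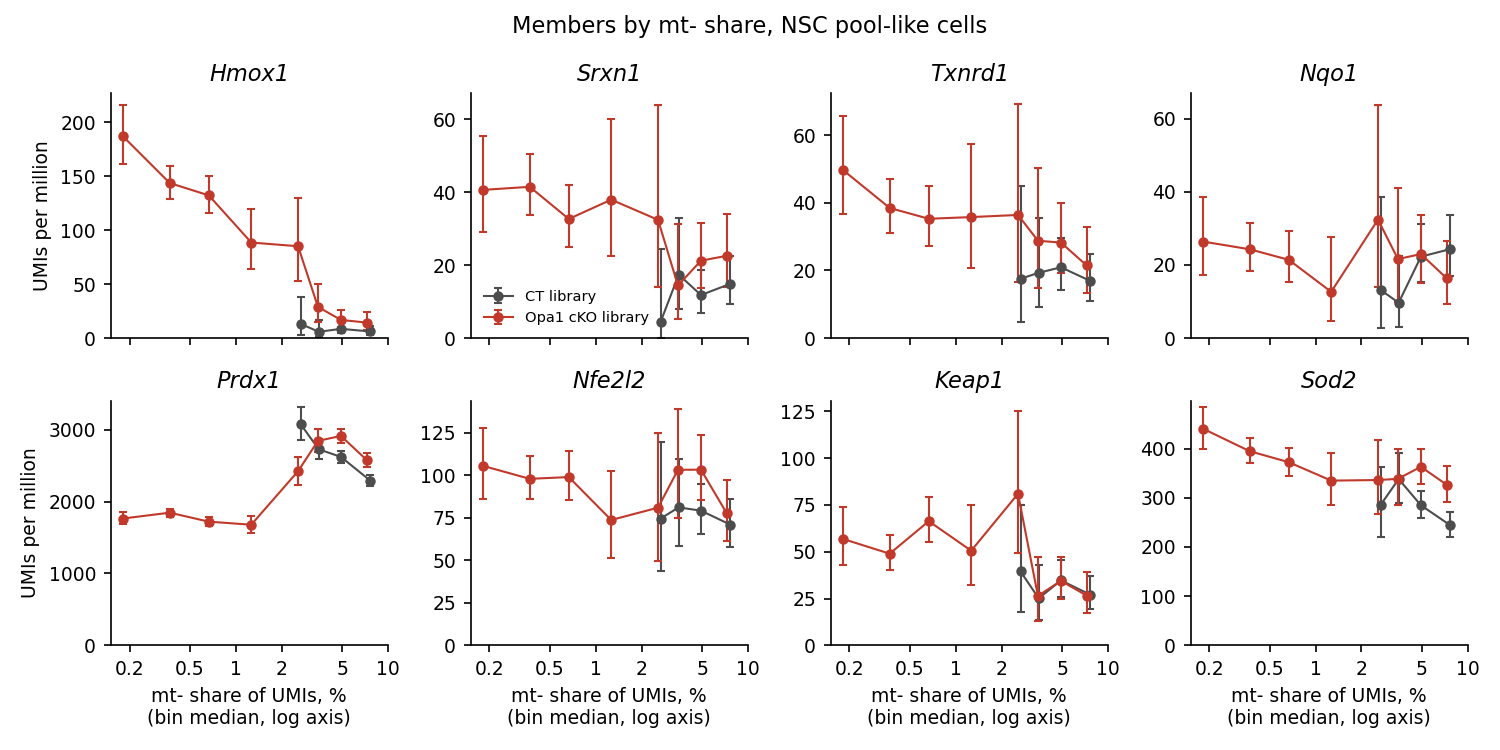
Level in CPM of 8 members (panels, each with its own axis from 0) against the median mt- share of the bin (percent, log axis) in NSC pool-like cells of CT (grey) and Opa1 cKO (red), with exact 95% counting intervals and only bins of at least 20 cells. Hmox1 goes from 187 to 14.3 CPM over the Opa1 cKO bins, while Nqo1 shows no such slope and Prdx1 is lower in the bins under 2%.

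The sum of the ISR and ATF4 list followed the mt- share and that of the NRF2 list did not in the same way. Summed over its genes, the ISR and ATF4 list stood at 8110 CPM in Opa1 cKO cells under 1%, 5958 CPM from 1% to under 3% and 1843 CPM at 3% or more, against 1541 CPM in all CT cells. The NRF2 list without Slc7a11 stood at 15588, 15389 and 16628 CPM in the same groups, lowest in the middle group and highest at 3% or more, against 14576 CPM in CT. This sum joins abundant genes that differed in opposite directions, so it does not show that the genes of the list were level. In thinned Opa1 cKO cells without a Hmox1 UMI, Fth1 stood at 4442 CPM under 1% and 2614 CPM at 3% or more. Gstm5 stood at 1623 and 4217 CPM in the same cells. Of the 29 NRF2 targets with enough counts 3 (10.3%, against 6.31% of all genes) were at least 2-fold higher under 1%. These were Slc7a11 at 1.83, Ephx1 at 1.43 and Gsta3 at 1.02 on 21 UMIs under 1% and 5 at 3% or more. The 1 gene at least 2-fold lower was Gstm5 at -1.48. Nfe2l1 again led the regulators, at 2.48.

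Hmox1 was also higher in Opa1 cKO among cells whose mt- share was in the CT range, though by far less. At 3% or more, the log2 ratio of Opa1 cKO over CT was 1.33 (0.59 to 2.1), from 45 UMIs in 768 cells and 25 UMIs in 1268 cells. In this subset Hmox1, by whose level the members were chosen, was the 1 member of 9 at least 2-fold higher. Of the 8 others 0 were at least 2-fold higher or lower, where 1.00% of 10368 genes were higher and 4.57% lower. The median over all genes was -0.12. The other members lay between -0.08 for Nqo1 and 0.57 for Srxn1, whose interval of -0.02 to 1.16 includes equality, and Keap1 stood at 30.1 CPM in both libraries. Prdx1, lower in the whole class, was here slightly higher, at 2496 CPM in CT against 2771 CPM in Opa1 cKO (log2 ratio 0.15, interval 0.11 to 0.20). Within cluster 0 alone, which holds nearly all of these cells, the Hmox1 ratio was 1.14 (0.41 to 1.88).

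Hmox1 was captured in a minority of cells. In Opa1 cKO 24.3% of NSC pool-like cells held at least 1 Hmox1 UMI and in CT 1.96%. With each cell thinned to 1500 UMIs, which left out 201 shallower Opa1 cKO cells and 94 CT cells, the shares were 11.6% (10.3 to 12.9) and 1.09% (0.60 to 1.82). By mt- share the thinned Opa1 cKO shares were 16.1% under 1%, 11.0% from 1% to under 3% and 2.85% at 3% or more. No cell held more than 6 Hmox1 UMIs, and the 10 cells with most held 5.44% of the Opa1 cKO total, so the level did not rest on a few cells.

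Cells in which Hmox1 was captured were compared with the others of the Opa1 cKO NSC pool-like class, 276 against 2106 thinned cells. The share of cells and the members come from the same cells, and cells are not replicates. The interval of 0 of the 8 other members lay above equality: Srxn1 had a log2 ratio of 0.57 (-0.20 to 1.27), Nfe2l2 0.34 (-0.12 to 0.77), Txnrd1 0.29 (-0.54 to 1.04) and Nqo1 -0.81 (-2.48 to 0.48), from 5 UMIs in the cells with Hmox1. Prdx1 was lower in the cells with Hmox1, at -0.23 (-0.35 to -0.12). Of 15 ISR and ATF4 targets with at least 20 UMIs, 11 had an interval above equality and 4 an interval that includes it. Their median log2 ratio was 0.53, against -0.10 over the 8 other members. Whether an interval clears equality depends on the UMIs counted, and the same count over all genes was not made. The counts of intervals therefore do not compare the lists with each other. Ddit3, 1 of the 11, had 0.53 (0.30 to 0.76) on 185 and 976 UMIs, while Srxn1 had 20 and 103 UMIs. Among the 11 were Chac1 at 1.21 (0.71 to 1.69), Trib3 at 0.94 (0.51 to 1.35), Atf4 at 0.89 (0.61 to 1.16) and Nupr1 at 0.62 (0.49 to 0.74). Of 26 NRF2 targets 4 lay above equality, Pgd at 0.89 (0.03 to 1.67), Slc7a11 at 0.46 (0.33 to 0.60), Fth1 at 0.26 (0.19 to 0.33) and Ftl1 at 0.16 (0.04 to 0.29), and 3 below it, Gstm5 at -0.63, Gsta4 at -0.61 and Gstm1 at -0.17, with a median of 0.05. The median mt- share was 0.440% in the cells with Hmox1 and 0.722% in those without. Within the cells under 1%, where both medians were close (0.40% and 0.41%), Srxn1 had 0.13 (-0.75 to 0.92) and Prdx1 -0.06 (-0.19 to 0.07), while Chac1 had 0.86 (0.35 to 1.35) and Atf4 0.45 (0.16 to 0.75). These were the 2 of 15 ISR and ATF4 targets whose interval lay above equality there, and the other 13, with Trib3 at 0.31 (-0.15 to 0.74) and Nupr1 at 0.12 (-0.02 to 0.25), had intervals that include it, for a median of 0.10. Of the 26 NRF2 targets 1 lay above equality in these cells, Pgd at 1.16 (0.18 to 2.07), and 2 below, Idh1 at -0.60 and Gstm5 at -0.19.

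**Figure D4:**
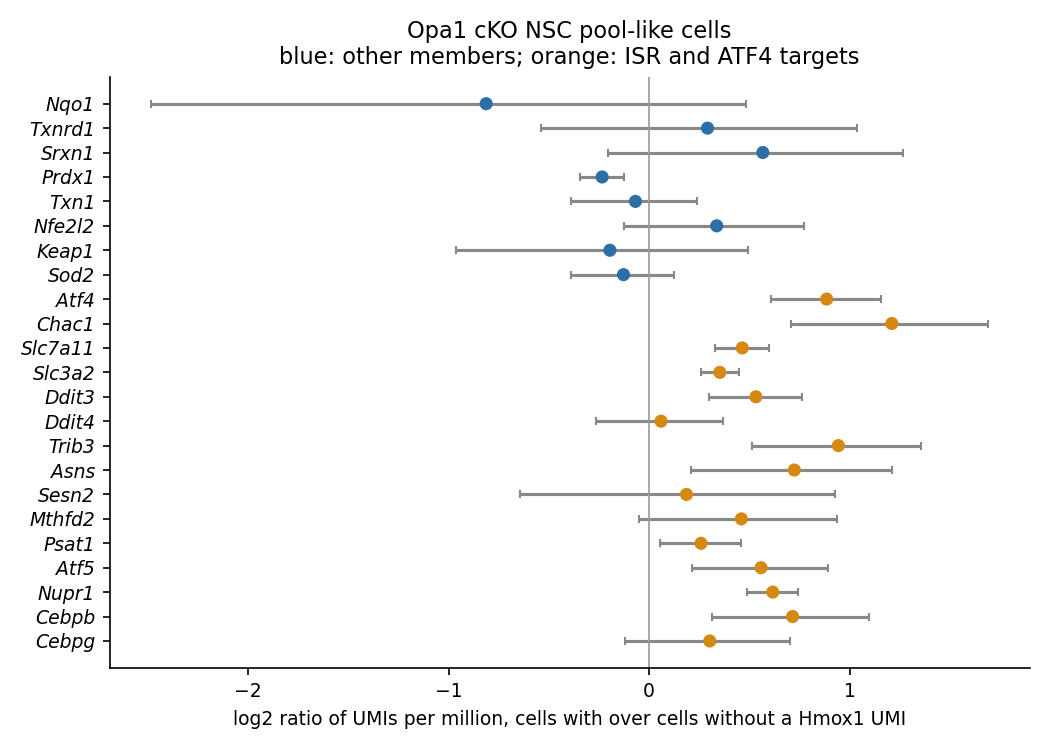
Log2 ratio of CPM in 276 Opa1 cKO NSC pool-like cells with a Hmox1 UMI over 2106 cells without one, each cell thinned to 1500 UMIs, for the 8 other members (blue) and the ISR and ATF4 targets with at least 20 UMIs (orange), with exact 95% counting intervals. Chac1 lies at 1.21 and Atf4 at 0.89 with intervals above 0, while the interval of no member lies wholly above 0. Intervals are wider where fewer UMIs were counted, so whether they clear 0 does not compare the members with the targets.

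Other classes of the same library gave the background for capture of Hmox1. After thinning to 1500 UMIs, 9.02% (6.29 to 12.4) of the 366 activated NSC-like cells of Opa1 cKO held a Hmox1 UMI and 7.77% (3.41 to 14.7) of the 103 mural-like cells. The share was 3.33% (1.45 to 6.46) in ependymal-like cells, 1.23% in progenitor and neuron-like cells, 1.12% in endothelial-like cells and 0.990% (0.025 to 5.39) in oligodendrocyte-like cells. The NSC pool-like share of 11.6% lies above the intervals of the last 4 classes and within those of the activated NSC-like and mural-like classes. Median depth before thinning ran from 1618 UMIs in mural-like to 3914 UMIs in oligodendrocyte-like cells.

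In CPM the order was the same at the top, with Opa1 cKO levels of 103.9 in the NSC pool-like class, 61.2 (48.4 to 76.3) for activated NSC-like cells and 34.5 (17.9 to 60.4) for mural-like cells. Oligodendrocyte-like cells followed at 23.0 (11.0 to 42.2), then ependymal-like cells at 13.7, endothelial-like cells at 13 and progenitor and neuron-like cells at 12.0 CPM, and the intervals of neighbours among these last 5 classes overlap. CT cells had 0 Hmox1 UMIs in the activated NSC-like (11 cells, which allows 101 CPM by the floor of 3 counts), ependymal-like (39 cells, 27.4 CPM) and mural-like (94 cells, 18.4 CPM) classes, so the small CT classes do not show how low their level is. The order of the classes did not follow their mt- share: 70.9% of Opa1 cKO ependymal-like cells lay under 1%, and those cells stood at 17.1 CPM, against 147.6 CPM for NSC pool-like cells under 1%. Summed ISR and ATF4 targets stood at 1614 CPM in these ependymal-like cells, 5693 CPM in the mural-like cells under 1% and 4657 CPM in the activated NSC-like cells under 1%. Hmox1 in those mural-like cells stood at 39.0 CPM from only 4 UMIs, and the 17.1 CPM of the ependymal-like cells rests on 11 UMIs. Whether Hmox1 goes with the ISR sum across classes was not tested.

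**Figure D5:**
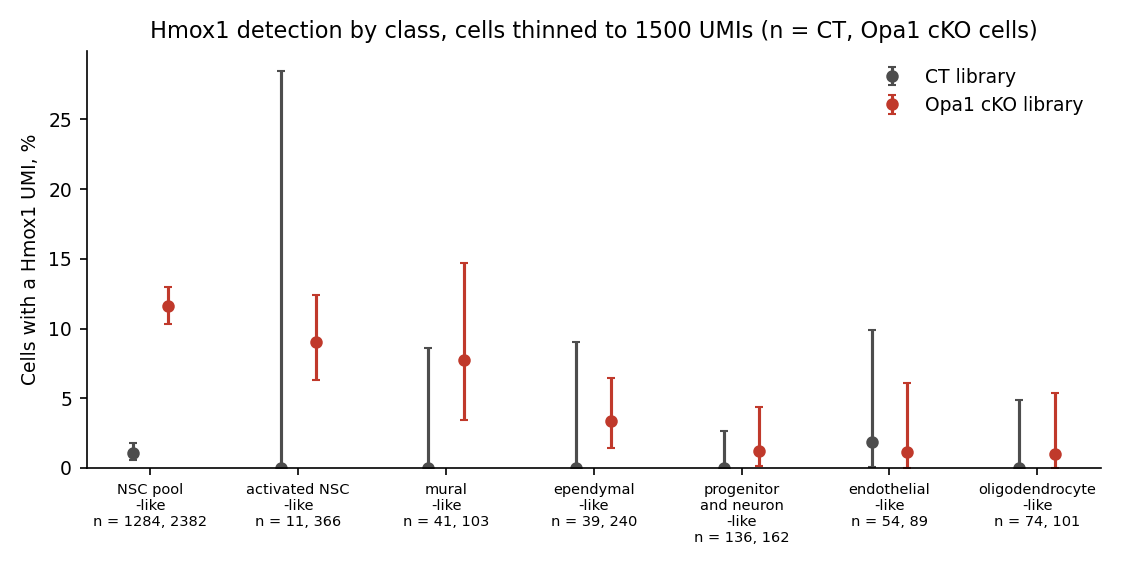
Share of cells with at least 1 Hmox1 UMI (percent) in 7 classes of CT (grey) and Opa1 cKO (red), each cell thinned to 1500 UMIs, with exact 95% binomial intervals and cell numbers under each class. In Opa1 cKO the NSC pool-like share is 11.6% and the oligodendrocyte-like share 0.990%.

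The other members were spread over the classes in orders of their own. In Opa1 cKO, Nqo1 was highest in ependymal-like cells, at 46.3 CPM (33.6 to 62.2), against 22.3 CPM in NSC pool-like cells, and from 5.18 to 11.5 CPM in the endothelial-like, mural-like, progenitor and neuron-like and oligodendrocyte-like classes. Txn1 was likewise highest in ependymal-like cells, at 626 CPM (577 to 679), and Txnrd1 in progenitor and neuron-like cells, at 115 CPM (88.9 to 146), where CT had 178 CPM (141 to 221). Prdx1 was highest in oligodendrocyte-like cells, at 2796 CPM in Opa1 cKO and 2511 CPM in CT, and lowest in progenitor and neuron-like cells, at 768 and 773 CPM. Sod2 stood at 375 CPM in NSC pool-like and 368 CPM in ependymal-like cells of Opa1 cKO, with overlapping intervals, and at 135 CPM in endothelial-like cells. Srxn1 stood at 34.1 CPM in activated NSC-like and 32.7 CPM in NSC pool-like cells of Opa1 cKO, and at 10.5 CPM (5.05 to 19.4) in ependymal-like cells. Thus the class with the most Hmox1 was not the class with the most Nqo1, Txnrd1, Txn1, Prdx1, Keap1 or Nfe2l2, though the intervals of Keap1 and Nfe2l2 overlap between their leading classes.

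The genes whose level followed that of Hmox1 most closely were sought over the 13 library and class profiles with at least 30 cells. On the log2 scale with 10 CPM added, Pearson r was 0.952 for Gdf15, 0.929 for Ddit3, 0.899 for Mrps28, 0.882 for Uqcrc2 and 0.863 for Rab9, of 7149 genes compared. Gdf15, a secreted stress hormone, stood at 0.265 CPM in CT against 99.7 CPM in Opa1 cKO NSC pool-like cells, and Ddit3, the ISR transcription factor CHOP, at 49.5 and 340.3 CPM. Among the members Sod2 was nearest with r 0.615 at rank 440, then Nqo1 with 0.585 at rank 561, while Keap1 had 0.024 and Txn1 -0.015. The profiles include the NSC pool-like classes of both libraries, by whose Hmox1 levels the members were chosen. They also share libraries, depth and the totals they are scaled to, so these values are descriptions.

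Other cells and RNA from them were counted beside these levels. Of 12 microglia and macrophage markers, 10 were detected in NSC pool-like cells of CT and 9 in those of Opa1 cKO. Mrc1 and Pf4 were at 0 in both, and the sum was 72.0 CPM in CT against 134.5 CPM in Opa1 cKO. Of the 1142 UMIs of the Opa1 cKO sum, C1qa held 17, C1qb 31 and Cx3cr1 8, so the sum rests mostly on other markers of the list. Along the mt- share of Opa1 cKO cells the sum was nearly level, at 133.9 CPM under 1% and 137.4 CPM at 3% or more. In the cells under 1%, 7 of the 12 markers were detected, and Cx3cr1, Tyrobp, Mrc1, Pf4 and Cd163 were at 0. A marker UMI was held by 535 of the 1574 cells under 1% and 188 of the 768 cells at 3% or more. In CT it was held by 237 of 1378 cells. Globins, the heme proteins of red blood cells, were summed with Alas2, a red cell enzyme of heme synthesis. The sum was 309.9 CPM in CT, from 22 cells with a UMI of this list, and 9.19 CPM in Opa1 cKO. Leaving out every cell with a UMI of either list left 1119 CT and 1741 Opa1 cKO cells and gave a log2 Hmox1 ratio of 3.95.

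The YFP filter itself moved the level. When cells without a YFP UMI were clustered too, Opa1 cKO NSC pool-like cells with a YFP UMI had 103.2 CPM of Hmox1 and those without 63.7 CPM (55.6 to 72.6), with 60.4% and 36.7% of cells under 1% mt- share, and the 2 CT groups had 7.67 and 8.65 CPM. The part of the YFP transcript in this difference was not tested.

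Some counts of members carry limits from the annotation. Txnrd1 overlaps Eid3 and Nfe2l2 the snRNA gene Gm24996 on their own strands, Txnrd1 also overlaps Gm38560 and Gm47073 on the other strand, Keap1 overlaps the antisense gene Gm16754, and the processed pseudogene Txn-ps1 could share reads with Txn1, so the levels of these members are uncertain to the extent that reads are shared.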

How the data were processed

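The deposited files hold UMI counts per gene and barcode, made by the authors from 10x Genomics 3′ v2 libraries against mm10. The processing notes name Cell Ranger 2.1.1, while the matrix headers give software version 3.1.0, and filters applied before deposit are not given in the sources used here. Counts of symbols with several rows were summed. Cells with over 600 and under 7500 genes, under 20% mt- UMIs and at least 1 YFP UMI were kept, as in the study. Both libraries were normalised with SCTransform (sctransform 0.4.2) and clustered with Seurat 5.3.0 in R 4.3.3 on dimensions 1 to 8 at resolution 0.2, without removal of doublets. Clusters were named from markers in a list, by the class with the most markers among the 50 leading genes. At least 3 markers of that class had to be over 2-fold, and no other class could have more markers among the 10 leading genes. The reference for the folds, the mean of the other clusters with equal weight, was set after the clusters had been seen. The members are among the genes that were clustered.

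UMIs were summed by library and class and divided by all UMIs of the class (CPM). Exact intervals for CPM, ratios and shares, with scipy 1.17.1, numpy 2.4.6 and pandas 2.3.3 in Python 3.11.15, have a level of 95%. They cover counting error only. Ratios between members are conditional odds ratios. A count of 0 was set at a floor of 3 counts. For shares of cells each cell was thinned to 1500 UMIs with seed 1. Genes were counted as higher or lower past 2-fold with at least 20 UMIs. No test was run, since each genotype has 1 library. The scripts were tested on simulated data. The median depth of kept cells is 2555 UMIs (CT) and 3008 UMIs (Opa1 cKO), so a gene near 10 CPM is seen in few cells.

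The members and gene lists were chosen with earlier results of these data known. Named genes are the members, Opa1, in each list the 3 highest and 2 lowest log2 ratios, the 5 genes most like Hmox1 (at least 300 UMIs) and class markers. Chosen after their values were seen were Gstp1, Gclc, Gclm, the list sums, Bach1, Hmox2, Blvra, the ISR and NRF2 target genes in cells with Hmox1, and the genes past 2-fold along the mt- share. The levels of Gstm5 and Fth1 by mt- share in cells without Hmox1 were chosen so too. Alternatives were no YFP filter, other clusterings, thinning, other denominators, the top 5% of doublet scores (Scrublet in scanpy 1.11.5) left out, cells with UMIs of other cell types left out, and other minimums and mt- limits. Promoter windows are from RefSeq (GRCm38.p6) and gene positions from GENCODE M21. Figures were drawn with matplotlib 3.10.9.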

Additional observations from a re-analysis of the deposited data

How the results depend on the processing

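Each value in NSC pool-like cells was recomputed under up to 13 alternatives. The log2 ratio of Hmox1 stayed within its interval, from 3.39 at resolution 0.4 to 4.01 without the cells of highest doublet score, and the ratio of cells under 1% over cells of 3% or more mt- share from 2.71 to 3.34. Hmox1 relative to Srxn1 ranged from 1.97 to 2.94 and relative to Nqo1 from 3.14 to 3.99. No alternative turned any member's direction beyond its interval, but some ratios left their interval. Prdx1, which ranged from -0.33 to -0.16, did so in 4 of 11 alternatives, and Txn1 and Sod2 in 1 each. Without the YFP filter Txn1 stood at 0.31. The count of members at least 2-fold higher, Hmox1 included, was 2 or 3, and 3 both at resolution 0.4 and without cells holding a UMI of another cell type. The count of NRF2 targets at least 2-fold higher was 2 in place of 4 at resolution 0.4, which leaves 820 CT and 1749 Opa1 cKO cells in the class. The thinned share of Opa1 cKO cells with a Hmox1 UMI, 11.6%, was 13.1% in the clustering without the mt- genes, the members and the ISR list, 13.3% after log-normalization, 13.1% after clustering the lineage cells again and 8.92% when thinned to 1000 UMIs, where a smaller depth lowers capture by construction. The cause of the other moves was not tested. Leaving out barcodes found in both libraries was added after the data were seen and gave a Hmox1 ratio of 3.8, and the ratios of Hmox1 to each member under the alternatives were added then too. No paired analysis was possible because each genotype has 1 library. Depth limits Hmox1 most, with 28 CT UMIs and the widest interval of the members, then Nqo1, Srxn1 and Txnrd1, on 50 to 78 CT UMIs each, and the CT classes outside the NSC pool, with at most 139 cells.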
